A study of Mus musculus with 2 samples.

Results

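The Gadd45 family of the mouse has 3 genes, Gadd45a, Gadd45b and Gadd45g, and all 3 were found by symbol among the 31053 genes of the count tables. They were followed through droplet RNA sequencing of single cells in 2 libraries, ipsilateral and contralateral. The ipsilateral library came from lateral striatum on the side of a middle cerebral artery occlusion (MCAO), a model of stroke, and the contralateral library from the opposite striatum. In both, male C57/BL6 mice had the artery closed for 60 minutes on p10 (postnatal day 10) and the vessel open again for 2 weeks. Each library pooled the striata of 3 animals, and cells were sorted by FACS for the surface antigens A2B5 or O4, or both, which mark early glial progenitors and later oligodendrocyte stages. No library from unoperated mice was used here. The family was selected on its UMIs per library and cell type, with earlier results of these counts known, so its differences between sides are descriptions. With 1 library per side there is no replicate, no test was made, and every interval below covers counting error only. The side, the pool of animals and the library cannot be told apart.

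GADD45 proteins are small, acidic, mainly nuclear proteins induced by stress, growth arrest and differentiation signals. They have no known enzyme activity and act by binding other proteins, among them the kinase MAP3K4 upstream of p38 and JNK, the CDK1 and cyclin B1 complex, PCNA and the CDK inhibitor p21. They also take part in removal of DNA methylation together with TDG and TET enzymes. Gadd45a is a classic p53 target and DNA damage gene, Gadd45b responds to NF-kB, TGF-beta and neuronal activity, and Gadd45g responds to cytokines and is expressed in differentiating neural precursors.

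In GENCODE M21 on GRCm38 (mm10), Gadd45a (ENSMUSG00000036390) lies on the minus strand at chr6:67035096-67037457, Gadd45b (ENSMUSG00000015312) on the plus strand at chr10:80930073-80932204, and Gadd45g (ENSMUSG00000021453) on the plus strand at chr13:51846678-51848468. Each is protein coding, and its longest transcript by exon number has 4 exons. None of the 31-base words of Gadd45b or Gadd45g occurs in transcripts of another gene. Of the words of Gadd45a, 16.98% occur on either strand in E230016M11Rik, an antisense gene that overlaps it. The sources used here do not say whether strand was used in counting. Whether reads of that gene entered the Gadd45a counts was not checked. The promoters are shown because the members differ in which classic promoter elements they carry. They are the 250 bases before each gene's start in RefSeq on GRCm38.p6, read 5′ to 3′ on the gene's strand at chr6:67037408-67037657, chr10:80929841-80930090 and chr13:51846425-51846674. Starts in RefSeq and GENCODE differ here. The windows of Gadd45a and Gadd45b therefore run past their GENCODE starts into the gene. Capitals mark matches to the motifs named below.
Gadd45a: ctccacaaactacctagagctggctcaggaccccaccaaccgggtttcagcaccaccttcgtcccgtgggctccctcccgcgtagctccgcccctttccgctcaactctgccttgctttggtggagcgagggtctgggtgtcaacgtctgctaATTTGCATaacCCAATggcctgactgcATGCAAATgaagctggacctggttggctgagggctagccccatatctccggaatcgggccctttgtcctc
Gadd45b: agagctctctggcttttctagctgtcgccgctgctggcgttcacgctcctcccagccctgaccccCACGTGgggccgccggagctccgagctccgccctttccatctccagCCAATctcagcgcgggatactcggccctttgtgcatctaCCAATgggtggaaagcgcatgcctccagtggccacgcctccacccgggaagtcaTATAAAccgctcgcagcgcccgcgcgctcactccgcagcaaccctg
Gadd45g: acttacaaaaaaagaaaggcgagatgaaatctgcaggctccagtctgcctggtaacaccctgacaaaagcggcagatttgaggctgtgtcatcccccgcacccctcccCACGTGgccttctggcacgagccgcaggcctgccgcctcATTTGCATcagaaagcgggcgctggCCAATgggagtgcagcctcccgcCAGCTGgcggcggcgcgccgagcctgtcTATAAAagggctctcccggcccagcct
Motifs were searched on both strands. The octamer ATTTGCAT is the element bound by POU (OCT) factors. In Gadd45a it occurs on the plus strand from -97 to -90 and on the minus strand from -70 to -63. Positions are counted from the RefSeq start. It also occurs in Gadd45g from -103 to -96, and it is in 1.601% of 32851 promoter windows of the same length. CCAAT, the NF-Y element, is in all 3 promoters (33.85% of all windows), with 2 copies in Gadd45b. TATAAA is in Gadd45b and Gadd45g (12.37% of windows), and so is the E-box CACGTG (6.021%). The E-box CAGCTG, a site type of proneural factors, is in Gadd45g alone among the 3 (13%). Neither the AP-1 motif TGANTCA (6.749%) nor the cyclic AMP element TGACGTCA (1.546%) is in these windows. No motif overlaps another in the 3 windows, and a match is a string of letters, not a measured binding site.

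The ipsilateral library held 2775 barcodes and 54788795 UMIs (unique molecular identifiers, each counting 1 captured RNA molecule), and the contralateral library 2066 barcodes and 36063045 UMIs, with 0 barcode sequences in common. Filters of at least 500 genes and at most 15% mitochondrial UMIs kept 2505 ipsilateral and 1913 contralateral cells. The kept cells held 1136 ipsilateral and 847 contralateral UMIs of Gadd45a, 1718 ipsilateral and 697 contralateral of Gadd45b, and 6068 ipsilateral and 3662 contralateral of Gadd45g. The barcodes left out held at most 29 UMIs of any member in a library. Cells were clustered without the 3 members and named by marker genes with the ending "-like". The OPC-like class (oligodendrocyte precursors) had 407 ipsilateral and 319 contralateral cells, the committed or newly formed oligodendrocyte-like class 256 ipsilateral and 128 contralateral, and the mature oligodendrocyte-like class 955 ipsilateral and 524 contralateral. The markers also named cells outside the labelled lineage, with 392 ipsilateral and 436 contralateral neuroblast or neural progenitor-like cells, 118 ipsilateral and 117 contralateral astrocyte-like cells, 128 ipsilateral and 184 contralateral endothelial-like cells, and 15 ipsilateral and 14 contralateral mural-like cells. Microglia markers were low in the lineage, with 12 genes summing to 15.6 to 29.8 CPM (counts per 1e6 UMIs of the class) in the 3 ipsilateral classes and 14.9 to 36.5 CPM in the 3 contralateral ones. Up to 8 of the 12 were at 0 in a library of these 3 classes. In every class a difference in CPM can reflect more cells that express the gene or more RNA per cell, and the counts per cell below give both.

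**Figure D1:**
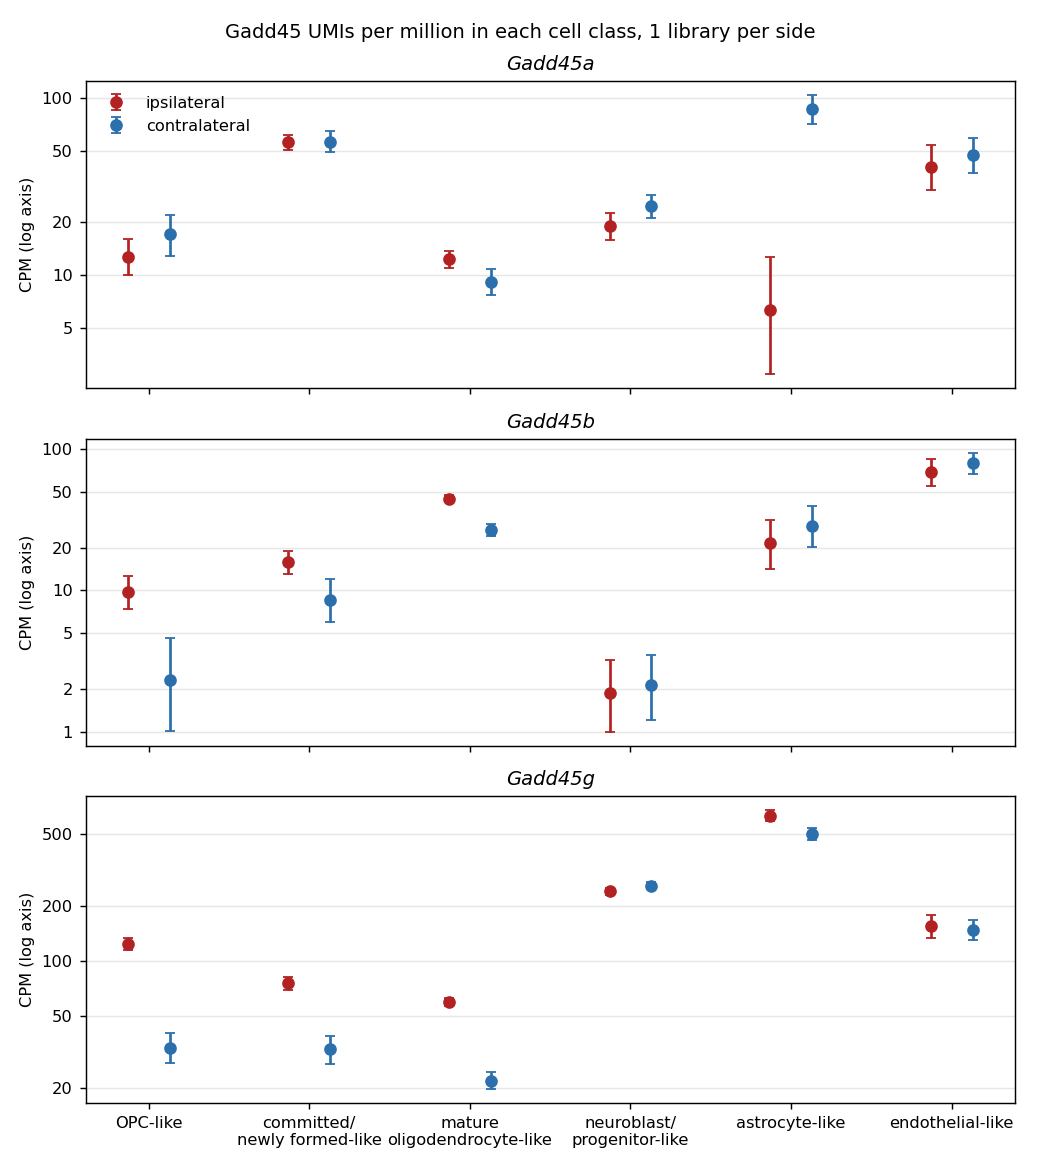
CPM (log axis) of each member in 6 cell classes, ipsilateral left and contralateral right within each class, as points with exact Poisson 95% intervals from 1 library per side. Gadd45g lies above its contralateral level in all 3 oligodendrocyte-lineage classes and is highest in astrocyte-like cells on both sides.

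Each member had its own order of classes. Gadd45g was highest in astrocyte-like cells, at 633 CPM ipsilaterally (exact Poisson 95% interval 590 to 679) and 503 CPM contralaterally (466 to 543), followed by neuroblast or neural progenitor-like cells at 242 CPM ipsilaterally and 261 CPM contralaterally and endothelial-like cells at 155 CPM ipsilaterally and 149 CPM contralaterally. The lineage classes came last. On the contralateral side the OPC-like and committed classes, at 33.3 CPM and 32.6 CPM, overlapped in their intervals, while on the ipsilateral side all 6 classes were separated, with OPC-like cells ahead of the other lineage classes. Gadd45b was highest in endothelial-like cells, at 68.7 CPM ipsilaterally and 79.6 CPM contralaterally among classes of at least 50 cells. The small mural-like class had 348 CPM of Gadd45b ipsilaterally (44 UMIs) and 286 CPM contralaterally (41 UMIs). Neuroblast or neural progenitor-like cells were lowest for Gadd45b, at 1.88 CPM ipsilaterally and 2.14 CPM contralaterally, from 13 ipsilateral and 16 contralateral UMIs. Gadd45a was highest ipsilaterally in committed or newly formed cells at 55.9 CPM (50.7 to 61.5), whose interval overlapped that of endothelial-like cells at 40.9 CPM (30.3 to 53.9). Contralaterally, committed cells had 56.6 CPM (49.4 to 64.5) and endothelial-like cells 47.7 CPM (37.7 to 59.4). Astrocyte-like cells stood above both at 86.2 CPM, a value that rests on 1 barcode described below. Within the lineage Gadd45a was highest at the committed stage on both sides, with 12.7 CPM ipsilaterally and 16.9 CPM contralaterally in OPC-like cells before it and 12.3 CPM ipsilaterally and 9.17 CPM contralaterally in mature cells after it.

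In OPC-like cells, Gadd45g stood at 124 CPM ipsilaterally (115 to 134, 725 UMIs), against 33.3 CPM contralaterally (27.4 to 40.0, 114 UMIs). The ratio was 3.73 (exact conditional 95% interval 3.06 to 4.59). In committed or newly formed cells it was 75.5 CPM ipsilaterally and 32.6 CPM contralaterally, a ratio of 2.32 (1.91 to 2.83). In mature cells it was 59.6 CPM ipsilaterally and 21.9 CPM contralaterally, a ratio of 2.72 (2.41 to 3.07). Gadd45g was thus higher on the ipsilateral side in all 3 lineage classes. Outside the lineage the sides lay closer in the classes of at least 50 cells. The ratio was 0.929 (0.870 to 0.993) in neuroblast or neural progenitor-like cells, 1.04 (0.858 to 1.26) in endothelial-like cells and 1.26 (1.13 to 1.40) in astrocyte-like cells. In neuroblast or neural progenitor-like cells the interval ends just under 1, and with each cell weighted equally the log2 ratio was -0.0016. The small mural-like class had a ratio of 18.1 (4.62 to 156). It rests on 32 ipsilateral UMIs, 56.2% of them in 1 barcode, and 2 contralateral UMIs.

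**Figure D2:**
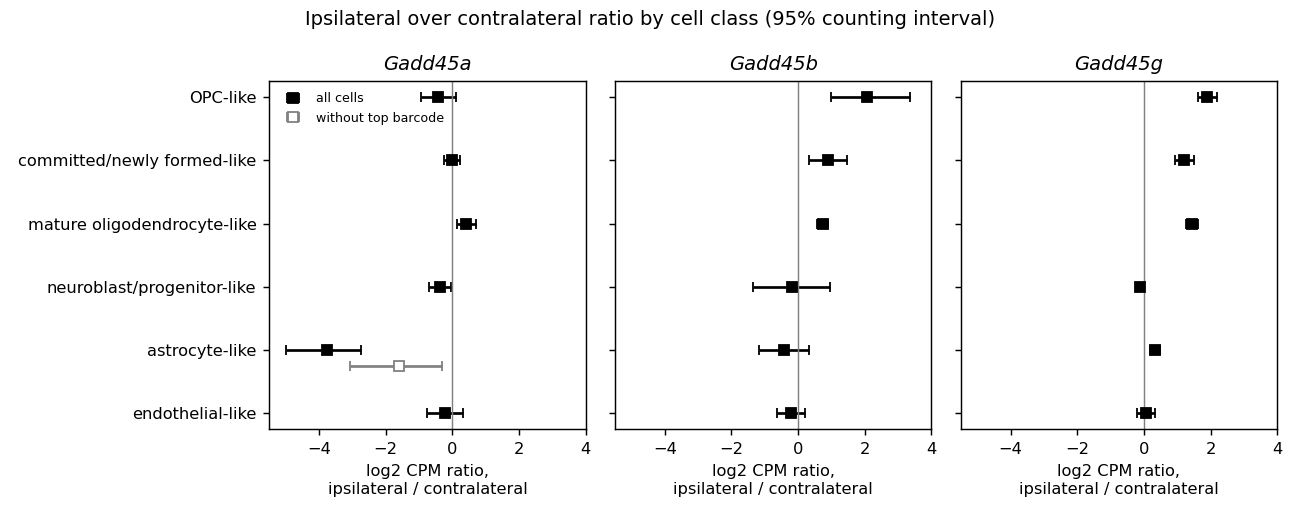
Log2 ratio of CPM, ipsilateral over contralateral, for each member in 6 cell classes, with exact conditional 95% intervals. The open square gives Gadd45a in astrocyte-like cells without the largest barcode of each library. Gadd45g is to the right of 0 in the 3 lineage classes, and Gadd45a is near or left of 0 in all but mature cells.

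The share of all genes past the same fold gives the background, over genes with at least 50 summed UMIs in a class. In OPC-like cells 0.774% of genes were at least 2-fold higher ipsilaterally and 0.51% at least 2-fold lower. Of the 3 members 2, Gadd45b and Gadd45g, were past the fold as higher and none as lower. Gadd45b reached the minimum of 50 UMIs through its 57 ipsilateral UMIs, beside 8 contralateral ones, so it could be counted only as higher. In committed cells 0.779% were higher and 0.448% lower, and 1 member, Gadd45g, was past the fold as higher. In mature cells 1.08% were higher and 0.175% lower, and Gadd45g was again the 1 member past the fold as higher. In astrocyte-like cells 0.921% were higher and 0.495% lower, and 1 member, Gadd45a, was past the fold as lower. It reached the minimum only through 1 contralateral barcode, and without the largest barcode of each library it had 7 ipsilateral and 22 contralateral UMIs, too few to be counted. No member was past it in neuroblast or neural progenitor-like cells, where 0.635% were higher and 0.261% lower and 2 members had enough UMIs, or in endothelial-like cells, where 1.26% were higher and 0.509% lower. By size of the ratio from the top, Gadd45g ranked 13 among 10983 genes in OPC-like cells. It ranked 52 among 10272 genes in committed cells and 63 among 10882 in mature cells. The members were chosen with these contrasts known, so the counts describe them and nothing more is read from them.

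Gadd45g was above its contralateral level in 11 of the 11 lineage clusters, with an interval above 1 in 10. In cluster 11, an OPC-like cluster led by Ccnd1, it was 156 CPM ipsilaterally and 43.8 CPM contralaterally, a ratio of 3.56 (2.60 to 5.00). In cluster 15, the OPC-like cluster with the strongest precursor markers, it was 68.62 CPM ipsilaterally and 21.04 CPM contralaterally, a ratio of 3.26 (2.31 to 4.68). The Gpr17-positive OPC-like cluster 17 had 132 CPM ipsilaterally and 82.2 CPM contralaterally, a ratio of 1.61 (1.03 to 2.59). Cluster 11 made up 50.9% of ipsilateral and 25.7% of contralateral OPC-like cells, and it had the higher Gadd45g on both sides compared with cluster 15. It was also the OPC-like cluster with the most of the division genes Mki67 and Top2a, at 150 and 321 CPM with both libraries pooled. Cluster 15 had 4.15 and 11.2 CPM of them, and cluster 17 had 8.31 and 37.4 CPM. When each cluster was given the same weight on both sides, the log2 ratio in OPC-like cells was 1.63. Among committed cells, Gadd45g was 111 CPM ipsilaterally and 43.0 CPM contralaterally in the Bmp4-led and Gpr17-led cluster 3 and 49.6 CPM ipsilaterally and 27.5 CPM contralaterally in cluster 2, called the later one here because mature oligodendrocyte markers scored next in it. Among mature cells the ratios were 2.99 and 3.08 in the Opalin-positive clusters 0 and 1, 1.50 in cluster 9 and 1.56 in cluster 7. In the Hapln2-led cluster 6 it was 29.3 CPM ipsilaterally and 27.0 CPM contralaterally, a ratio of 1.09 (0.819 to 1.45). Cluster 5, led by the reactive glia genes C4b and Serpina3n among others, held 182 ipsilateral and 7 contralateral cells. Its Gadd45g was 104 CPM (488 UMIs) ipsilaterally and 6.19 CPM (1 UMI) contralaterally, a ratio with an interval of 2.99 to 662. Without that cluster the log2 ratio of Gadd45g in mature cells was 1.19, against 1.44 with it.

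**Figure D3:**
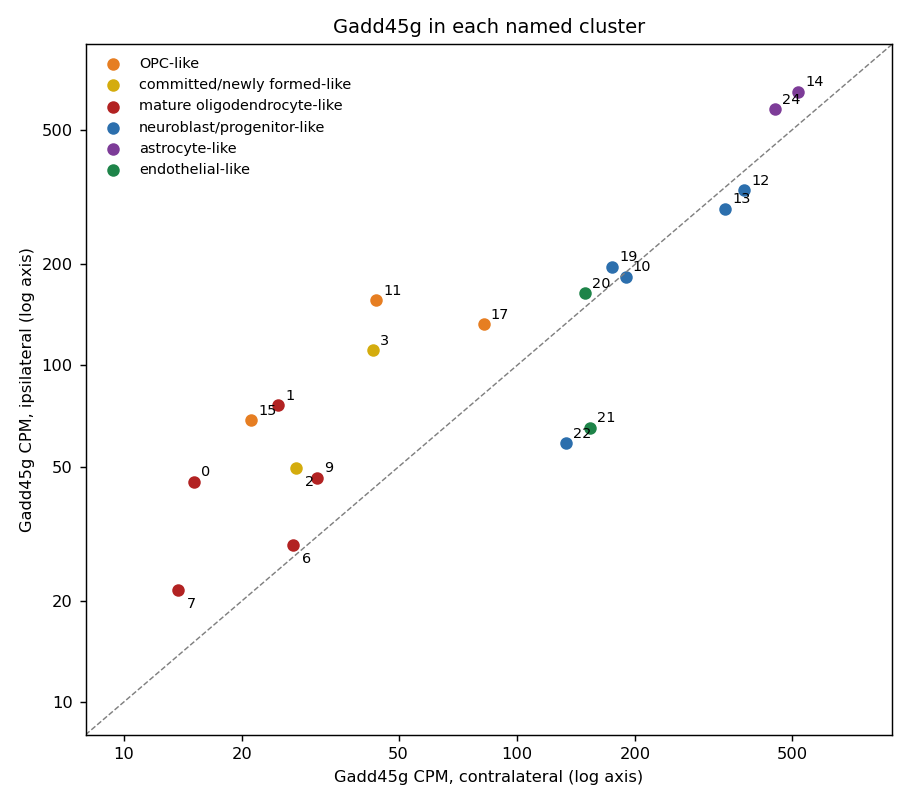
Gadd45g CPM in each named cluster, ipsilateral on the vertical and contralateral on the horizontal axis (both log), coloured by class, with the dashed line at equal levels. Clusters with under 3 UMIs in a library are not drawn (clusters 5 and 16 and the mural-like cluster). The 10 lineage clusters drawn lie above the line.

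Among neuroblast or neural progenitor-like clusters, none of 6 had an interval above 1 for Gadd45g and 3 had it below. The highest levels of Gadd45g were in clusters led by replication or mitosis genes, at 331 CPM ipsilaterally and 378 CPM contralaterally in the Mcm3-led cluster 12 and 292 CPM ipsilaterally and 338 CPM contralaterally in the Ube2c-led cluster 13. Both astrocyte-like clusters were higher ipsilaterally. Cluster 14, led by Clu and Fxyd1, had 649 CPM ipsilaterally and 518 CPM contralaterally (ratio 1.26, 1.12 to 1.41), and cluster 24, with Aqp4 and Gja1 among its leading genes, had 576 CPM ipsilaterally and 452 CPM contralaterally (1.27, 1.01 to 1.62).

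Gadd45b was rare in precursors and more abundant in mature cells. In OPC-like cells it was 9.76 CPM ipsilaterally (7.39 to 12.6, 57 UMIs), against 2.33 CPM contralaterally (1.01 to 4.60, 8 UMIs), a ratio of 4.18 (1.98 to 10.1). It had a UMI in 11.3% of ipsilateral and 2.51% of contralateral OPC-like cells. With each cell thinned to 5000 UMIs these shares were 4.39% ipsilaterally and 1.32% contralaterally. In neuroblast or neural progenitor-like cells, the class lowest for Gadd45b, the thinned shares were 0.852% ipsilaterally and 0.962% contralaterally. The contralateral OPC-like share, with an exact binomial 95% interval of 0.361% to 3.35%, could not be told apart from that lowest level at this depth. Over the alternatives the log2 ratio in OPC-like cells ran from 0.41, with 20 CPM added to both values, to 3.13 in cells with no microglia UMI, against 2.06 in all cells. In mature cells Gadd45b was 44.5 CPM ipsilaterally (1221 UMIs) and 26.7 CPM contralaterally (396 UMIs), a ratio of 1.67 (1.49 to 1.87). Part of this lay in cluster 5, at 89.1 CPM ipsilaterally (420 UMIs) and 12.4 CPM contralaterally (2 UMIs). Without it the log2 ratio was 0.39, against 0.74 with it, and at the same mix of the other mature clusters it was 0.19. Cluster 6 had 48.2 CPM ipsilaterally and 51.1 CPM contralaterally and cluster 1 had 34.6 CPM ipsilaterally and 32.4 CPM contralaterally, with intervals across 1, while cluster 7 had 19.1 CPM ipsilaterally and 8.87 CPM contralaterally (ratio 2.16, 1.35 to 3.50). In committed or newly formed cells Gadd45b was 15.9 CPM ipsilaterally and 8.59 CPM contralaterally, from 120 ipsilateral and 34 contralateral UMIs. Most of these UMIs lay in the later cluster 2, 115 ipsilaterally and 34 contralaterally. That value is not stable. Without barcodes that the doublet caller Scrublet marked, which in this class were 36 ipsilateral and 0 contralateral cells, at score thresholds of 0.154 ipsilaterally and 0.274 contralaterally, the log2 ratio was -0.60, against 0.88 with them. The removal was 1-sided, and the caller set the lower threshold in the ipsilateral library, where it marked 4.03% of cells against 0.732% contralaterally. With cells filtered more strictly and clustered again the log2 ratio was 2.62. Outside the lineage Gadd45b was 21.5 CPM ipsilaterally and 28.7 CPM contralaterally in astrocyte-like cells and 68.7 CPM ipsilaterally and 79.6 CPM contralaterally in endothelial-like cells, with intervals of the ratio across 1.

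Gadd45a did not follow the other members. In OPC-like cells it was 12.7 CPM ipsilaterally and 16.9 CPM contralaterally, a ratio of 0.749 (0.524 to 1.07). In committed or newly formed cells, where the gene is most abundant in the lineage, it was 55.9 CPM ipsilaterally (423 UMIs) and 56.6 CPM contralaterally (224 UMIs), a ratio of 0.988 (0.838 to 1.17). Its log2 ratio was -0.63 with each library clustered alone and 0.30 without the Scrublet calls, so its direction was not stable. Within that class, the later cluster 2 had 68.4 CPM ipsilaterally and 63.6 CPM contralaterally and the earlier cluster 3 had 38.8 CPM ipsilaterally and 42.2 CPM contralaterally. In mature cells Gadd45a was 12.3 CPM ipsilaterally and 9.17 CPM contralaterally, a ratio of 1.34 (1.09 to 1.65). The difference lay mostly in cluster 5, with 122 ipsilateral and 2 contralateral UMIs, and without it the log2 ratio was 0.05, against 0.42 with it. Neuroblast or neural progenitor-like cells had 18.9 CPM ipsilaterally and 24.5 CPM contralaterally, a ratio of 0.774 (0.613 to 0.974).

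In astrocyte-like cells Gadd45a was 6.37 CPM ipsilaterally, from 8 UMIs in 118 cells, and 86.2 CPM contralaterally, from 114 UMIs in 117 cells. A single contralateral barcode of 32363 UMIs in cluster 14 held 92 of the 114 UMIs, or 80.7%. Without the largest barcode of each library the levels were 5.63 CPM ipsilaterally and 17.1 CPM contralaterally, a ratio of 0.330 (0.119 to 0.799). Over the alternatives the log2 ratio ran from -3.86 to -0.66, the last in cells with no microglia UMI. The same barcode was looked at further after this was seen. It held 64 UMIs of Cdkn1a, the p53-induced gene of the CDK inhibitor p21, or 1978 CPM against 48.1 CPM in the other 116 cells, 41 UMIs of the apoptosis gene Bax (1267 against 175 CPM) and 15 of Phlda3 (463 against 38.0 CPM). Of the 20 listed p53 target genes, 17 had a UMI in it and 16 were higher in CPM than in the other cells, beside 45.1% and 32.8% of all 14578 genes with a UMI in these cells. Among genes with at least 20 UMIs there, the p53 targets gave 12 and 11 of 13, beside 68.8% and 46.7% of 8144 genes. It had 0 UMIs of Gadd45g, against 516 CPM in the other cells, and few of the astrocyte markers, with 3 UMIs of Aldoc, 9 of Slc1a2, 2 of Clu and 0 of Gfap. The barcode was picked for its Gadd45a UMIs and is 1 cell, so these values describe it alone. Its 5 UMIs of Gadd45b were 13.2% of that gene's contralateral astrocyte-like UMIs.

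Counts per cell show where the UMIs lay. In OPC-like cells Gadd45g had a UMI in 46.7% of ipsilateral and 19.1% of contralateral cells, and 5 or more UMIs in 48 of 407 ipsilateral and 4 of 319 contralateral cells. Median depth was 12531 UMIs ipsilaterally and 10148 contralaterally, so each cell was also thinned to 6265 UMIs, which left out 29 ipsilateral and 32 contralateral cells. The thinned shares were 31.7% ipsilaterally and 12.5% contralaterally. In committed cells Gadd45g was detected in 62.1% of ipsilateral and 46.1% of contralateral cells, or in 41.4% of ipsilateral and 25.2% of contralateral cells thinned to 11421 UMIs. In mature cells the shares were 34.0% ipsilaterally and 22.3% contralaterally, or 27.4% ipsilaterally and 17.9% contralaterally at 17733 UMIs. The share of Gadd45g-positive cells was thus higher ipsilaterally in each lineage class with and without thinning. In neuroblast or neural progenitor-like cells the thinned shares were 48.3% ipsilaterally and 49.8% contralaterally. Gadd45b had a UMI in 36.2% of ipsilateral and 26.1% of contralateral mature cells. Gadd45a had a UMI in 58.6% of ipsilateral and 56.2% of contralateral committed cells, the class where it was most widely detected on both sides. At a common 5000 UMIs per cell, Gadd45g was detected in 28.2% of ipsilateral and 10.2% of contralateral OPC-like cells, and in 27.3% of ipsilateral and 11.1% of contralateral committed cells. At that depth it was found in 13.9% of ipsilateral and 6.53% of contralateral mature cells. Astrocyte-like cells kept the highest shares, at 77.5% ipsilaterally and 66.3% contralaterally. No class was without Gadd45g, so no background share could be set for it.

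**Figure D4:**
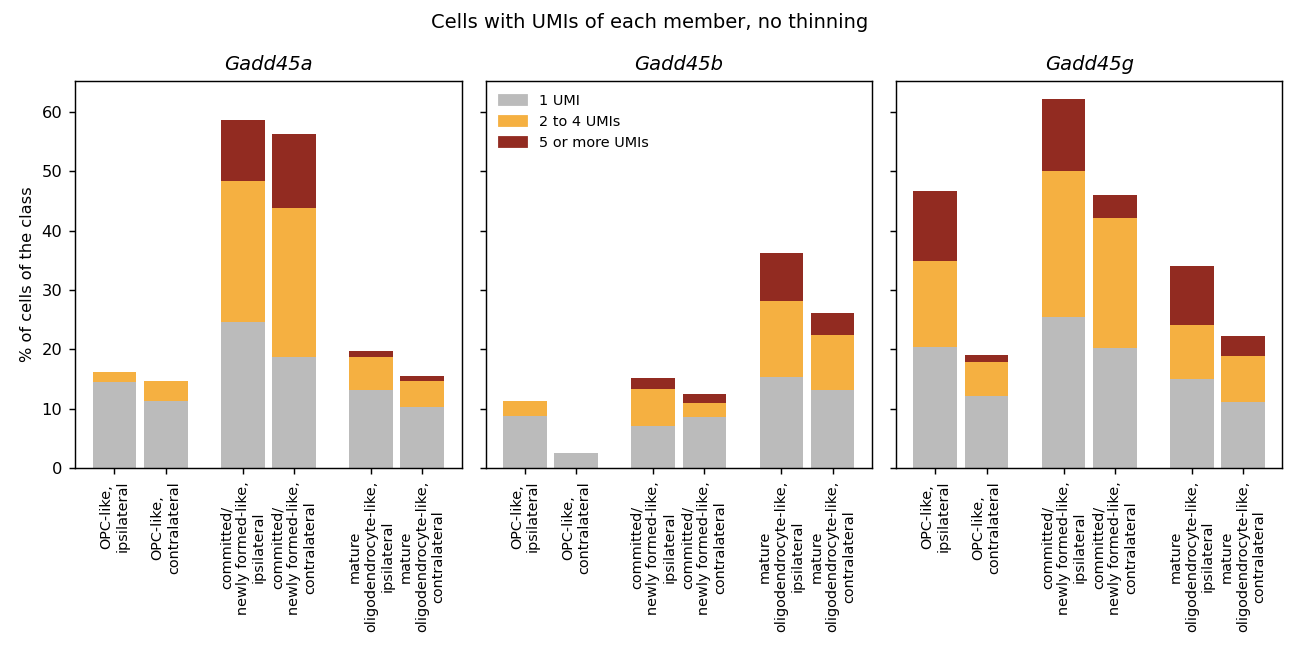
Percentage of cells in the 3 lineage classes with 1, 2 to 4, or 5 or more UMIs of each member, unthinned, with ipsilateral left of contralateral. For Gadd45g the ipsilateral bars are taller in all 3 classes, while for Gadd45a in committed cells the ipsilateral bar (58.6%) and the contralateral bar (56.2%) are of nearly the same height.

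Members were also counted in the same cell, beside the product of their separate shares. In OPC-like cells Gadd45b and Gadd45g were both found in 6.39% of ipsilateral cells, where the product of the shares is 5.28%, and in 0.313% of contralateral cells (product 0.480%). In mature cells they were both found in 16.4% of ipsilateral (product 12.3%) and 7.44% of contralateral cells (product 5.84%). Both members are found more easily in deeper cells, so a share over the product is no sign of a link. No member was detected in 41.3% of ipsilateral and 66.8% of contralateral OPC-like cells. All 3 were detected together in 5.13% of ipsilateral and 1.72% of contralateral mature cells, with products of 2.44% ipsilaterally and 0.902% contralaterally.

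Genes with the most similar profile were ranked by Pearson's r of log2(CPM + 5) over 12 points, 6 classes by 2 libraries, among 11359 genes. The points share libraries and depth, and no p is given. Nearest to Gadd45b were Zfp36, an RNA-binding protein that destabilizes cytokine mRNAs (0.953), the peptide ligand gene Apln (0.951), Tirap (0.943), the nuclear non-coding RNA Neat1 (0.942) and Tprgl (0.941). Nearest to Gadd45g were Emp1 (0.938), Fstl1 (0.916), the p38-activated kinase Mapkapk2 (0.915), the transcription kinase Cdk9 (0.912) and Emp2 (0.909). The genes nearest to Gadd45a were less alike, from Smcr8 at 0.874 to Wdr11 at 0.781, and its level in contralateral astrocyte-like cells rests on the barcode above. The members were unlike each other, with r of 0.20 for Gadd45a and Gadd45b, 0.096 for Gadd45a and Gadd45g and 0.064 for Gadd45b and Gadd45g.

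By median log2 ratio, the genes of proteins reported to bind or act with GADD45 lay near all genes as a group. By counting interval, a larger share of them than of all genes was above 1 in OPC-like cells, without matching by UMIs. Of 18 partners measured in OPC-like cells, 8 had a ratio above 1, and the median log2 ratio was -0.07, beside 41.2% of all 12205 genes above 0 and a median of -0.06. By counting interval, 6 of 18 were above 1 and 0 below, beside 8.96% of all genes above and 15.4% below. An interval narrows with more UMIs, and the partners were not matched to all genes by UMIs, so these shares are not like for like. The largest was Cdkn1a, at 22.4 CPM ipsilaterally and 7.59 CPM contralaterally, a ratio of 2.96 (1.93 to 4.69). Next were the mitotic pair Ccnb1 (50.5 CPM ipsilaterally and 33.3 CPM contralaterally) and Cdk1 (54.8 CPM ipsilaterally and 37.1 CPM contralaterally). After them came the replication clamp Pcna (96.2 CPM ipsilaterally and 74.4 CPM contralaterally). Ccnb1 and Cdk1 are also in the G2/M list and Pcna in the S phase list described below. Map3k4, the kinase that GADD45 proteins activate, was 44.9 CPM ipsilaterally and 48.2 CPM contralaterally in OPC-like cells and 27.4 CPM ipsilaterally and 28.8 CPM contralaterally in mature cells. In mature cells the partner median was -0.04 with 6 of 18 above 0, beside 52.2% of all genes. Among the partners, Mapk8 (JNK1) was 27.29 CPM ipsilaterally and 21.03 CPM contralaterally, Map2k7, which activates JNK, 43.3 CPM ipsilaterally and 36.7 CPM contralaterally, and the methylcytosine oxidase Tet1 27.4 CPM ipsilaterally and 35.2 CPM contralaterally. In committed cells 11 of 18 partners were above 0, with a median of 0.10, beside 49.7% of all genes and a median of -0.0019. They included the p38 kinase gene Mapk14 at 14.5 CPM ipsilaterally and 8.08 CPM contralaterally. In astrocyte-like cells Cdkn1a was 27.9 CPM ipsilaterally and 95.3 CPM contralaterally, and 50.8% of its contralateral UMIs were in the barcode with the Gadd45a UMIs.

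Lists of genes linked to the inputs of the family were set beside it. Immediate early and dissociation genes, which handling of tissue also induces, were higher ipsilaterally in most classes, with 18 of 22 above 0 in OPC-like cells (median 0.22), 15 of 22 in committed cells (0.29), 20 of 22 in mature cells (0.37) and 20 of 22 in neuroblast or neural progenitor-like cells (0.41). Of all genes, 41.2%, 49.7%, 52.2% and 56.2% were above 0 in these 4 classes in the same order. Their part in the Gadd45 differences was not tested. Among them Zfp36 was 46.2 CPM ipsilaterally and 19.3 CPM contralaterally and Junb 1007 CPM ipsilaterally and 586 CPM contralaterally in OPC-like cells, and Atf3 was 35.05 CPM ipsilaterally and 18.40 CPM contralaterally in mature cells. This list gave 16 of 22 above 0 in astrocyte-like cells (0.20) and 17 of 20 in endothelial-like cells (0.19), beside 48.5% and 53.2% of all genes. The p53 target genes gave 6 of 17 above 0 in OPC-like cells (median -0.24), 9 of 16 in committed cells (0.04) and 10 of 16 in mature cells (0.04). Of the NF-kB targets, 7 of 14 genes had enough counts in mature cells and 7 of 7 were above 0, with a median of 1.07, among them Nfkbiz at 18.3 CPM ipsilaterally and 8.69 CPM contralaterally. That median was 0.23 with 5 CPM added to both values. In OPC-like cells 5 of 7 measured NF-kB targets were above 0 (0.23), and in committed cells 3 of 6 (-0.0074). Outside the lineage 11 of 11 were above 0 in endothelial-like cells (0.67). The list gave 5 of 5 in neuroblast or neural progenitor-like cells (0.65) and 5 of 6 in astrocyte-like cells (0.32). In each of these classes outside the lineage the interval of the Gadd45b ratio crossed 1. The part of the NF-kB targets in the Gadd45b differences was not tested. The TGF-beta and SMAD targets, which include the Id genes, gave 2 of 8 above 0 in OPC-like cells (-0.21), 5 of 9 in committed cells (0.00) and 7 of 10 in mature cells (0.18). Integrated stress response genes gave 9 of 14 in OPC-like cells (0.16), 8 of 14 in committed cells (0.02) and 11 of 15 in mature cells (0.26).

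Proneural and lineage commitment genes gave 8 of 9 above 0 in OPC-like cells (median 0.30) and 7 of 9 in committed cells (0.17). In mature cells 8 of 11 were above 0 (0.40). The mature median was the value of Btg2, which is also in the immediate early and p53 target lists. Over the alternatives that median ran from 0.02 to 0.43. Outside the lineage the list gave 8 of 8 above 0 in endothelial-like cells (0.32). It gave 8 of 14 in neuroblast or neural progenitor-like cells (0.02) and 4 of 10 in astrocyte-like cells (-0.10). The Notch ligand gene Dll3 was 122 CPM ipsilaterally and 84.9 CPM contralaterally in OPC-like cells and 22.3 CPM ipsilaterally and 8.34 CPM contralaterally in committed cells, and Rgs16 was 38.3 CPM ipsilaterally and 15.4 CPM contralaterally in committed cells, while Dll1 was 56.2 CPM ipsilaterally and 84.0 CPM contralaterally in OPC-like cells. Cell cycle genes were also higher ipsilaterally in OPC-like cells, where 18 of 18 S phase genes (median 0.75) and 18 of 18 G2/M genes (0.58) were above 0. With clusters weighted alike on both sides the G2/M median was -0.31. In mature cells 11 of 17 S phase genes (0.04) and 6 of 16 G2/M genes (-0.10) were above 0. The part of cell cycle in the OPC-like difference was not tested beyond the values within clusters.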

How the data were processed

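The values are UMI counts per gene and barcode, deposited by the authors as 1 matrix per library and made with Cell Ranger 3.1.0 on mm10, per the submitters' processing notes. No source used here names the gene annotation. The members and gene lists were chosen with earlier results of these data known, and the cluster-naming scores and their 100 CPM marker floor were set after seeing the data. Cells with at least 500 genes and at most 15% mitochondrial UMIs were scaled to 10000, log-transformed and clustered together in scanpy 1.11.5 (2000 variable genes without the members, 30 components, 15 neighbours, Leiden resolution 1). Of 26 clusters, 4 with mixed markers stayed unnamed, with 234 ipsilateral and 191 contralateral cells. No doublets were removed, and Scrublet calls, 101 ipsilateral and 14 contralateral, were an alternative. Per class and library, UMIs were summed and given as CPM of the class total, with exact Poisson intervals (scipy 1.17.1). Ratios are ipsilateral over contralateral without added counts, with exact conditional intervals. Lists use genes with at least 20 summed UMIs, calls at least 50. Named genes are the members, up to 4 genes per list with the largest absolute ratio, the 5 most similar genes per member, and class markers. Partner genes beyond those 4 per class and the genes of the single barcode were named after their values were seen. Only the ratio and its interval were tried on simulated counts, drawn as Poisson counts from the OPC-like sums. Such draws share the interval's own assumption and leave out the spread between cells. Clustering, naming, thinning and lists were not tried in this way.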

Additional observations from a re-analysis of the deposited data

Results flagged for a closer look

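Gadd45g had a log2 ratio of 1.90 in OPC-like cells and -0.11 in neuroblast or neural progenitor-like cells, opposite directions on 1 library per side. The neuroblast or neural progenitor-like value was close to no difference, at -0.0016 with each cell weighted equally. Without the largest barcode of each library the ratio there was 0.939, with an interval of 0.878 to 1.005. The difference between the classes was not tested. Gadd45a had a log2 ratio of 0.42 in mature oligodendrocyte-like cells and -3.76 in astrocyte-like cells, again in opposite directions and not tested. The mature value was 0.05 without cluster 5, and the astrocyte-like value was -1.60 without the largest barcode of each library.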

How the results depend on the processing

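No paired analysis was possible because each side is 1 library and the labels give no replicate numbers. All values here are log2 ratios, ipsilateral over contralateral, and causes were not tested. Over the alternatives, Gadd45g lay between 1.44 and 2.17 in OPC-like cells (14 alternatives), 0.63 and 1.38 in committed cells (14) and 0.93 and 1.49 in mature cells (15). With 20 CPM added to both values, which draws low genes toward 0, Gadd45g was 1.44, 0.86 and 0.93 in OPC-like, committed and mature cells, and Gadd45b 0.41 in OPC-like and 0.47 in mature cells. With 5 CPM added, Gadd45g in mature cells was 1.26. Under the stricter filter, Gadd45g was 0.63 in committed and 1.17 in mature cells, Gadd45b 2.62 and 0.43, and Gadd45a -0.013 in mature cells. At the same mix of clusters the mature values were 1.05 for Gadd45g, 0.19 for Gadd45b and -0.10 for Gadd45a, and without cluster 5, an alternative added after seeing the data, 1.19, 0.39 and 0.051. In committed cells, leaving out Scrublet calls gave -0.60 for Gadd45b, 0.30 for Gadd45a and -0.25 for the G2/M median (1.24 with them). There Gadd45b was 2.21 with no filter, 2.37 and 2.28 at Leiden resolutions 0.5 and 2, 2.05 with each library clustered alone, 2.47 with the members kept among the clustering genes and 0.065 in cells with no microglia UMI, a setting also added later. Gadd45g was 0.71 at resolution 2 and Gadd45a -0.63 with libraries clustered alone. Gadd45b in OPC-like cells, at 57 ipsilateral and 8 contralateral UMIs, ran from 0.41 to 3.13, and Gadd45a in astrocyte-like cells, at 8 ipsilateral and 114 contralateral UMIs, from -3.86 to -0.66.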

Other observations

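The unnamed cluster 18, which mixed mature and precursor markers at a median of 43264 UMIs, had 93.4 CPM of Gadd45g in 52 ipsilateral cells and 32.7 CPM in 37 contralateral cells. Gadd45b there was 43.4 CPM ipsilaterally and 12.1 CPM contralaterally and Gadd45a 27.4 CPM ipsilaterally and 12.1 CPM contralaterally. The unnamed cluster 23, with microglia and fibroblast markers, had 269 CPM of Gadd45b from 36 UMIs ipsilaterally and 105 CPM from 6 UMIs contralaterally. The unnamed cluster 4, with neuroblast and neuron markers, had 161 CPM ipsilaterally and 170 CPM contralaterally of Gadd45g.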
